A study of Mus musculus with 2 samples.

Results

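The 9 genes described here are components of the Notch pathway chosen by name: the receptors Notch1, Notch3 and Notch4, the ligands Dll4, Jag1 and Jag2, and the target genes Hey1, Heyl and Hes1. The choice was made with earlier results of these data known. All 9 were found among the 32285 genes measured. They were followed through the cells of the blood vessel wall in single-cell RNA sequencing of mouse cerebellum, with 1 library from WT mice and 1 from KIKO mice. The study compared the cell types of the cerebellum between these genotypes. The KIKO (knock-in and knock-out) strain is a model of Friedreich ataxia. The WT mice were C57BL/6 littermates. Mice of both genotypes were 6 months old and received no treatment, and the methods of the study state that cerebella of 4 mice were pooled per library, so single mice cannot be told apart. The sex of the pooled mice is not stated in the sources used here. With a single library per genotype, replicate error could not be measured and the comparisons are given without tests, with intervals for counting error.

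Notch receptors are single-pass membrane proteins that bind Delta-like and Jagged ligands on a neighbouring cell. Binding leads to proteolytic release of the intracellular part of the receptor, which enters the nucleus and, with the DNA-binding protein RBPJ, activates genes of the Hes and Hey families of transcriptional repressors. In vessels the pathway is known for setting arterial identity in endothelial cells, where Dll4 acts through Notch1 and Notch4, and for maintaining pericytes and smooth muscle cells, in which Notch3 is the main receptor.

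Promoters are shown for a ligand of endothelial cells and for the receptor of mural cells (pericytes and smooth muscle cells). Of the vessel classes below, Dll4 was highest in arterial cells and Notch3 in pericytes. The RefSeq promoter table (mouse GRCm38.p6) held an entry for 6 of the 9 genes, and Hey1, Heyl and Hes1 had none. The 250 bases before the transcription start are printed 5′ to 3′ on the strand of the gene, with CG dinucleotides in capitals. The Dll4 sequence lies on the plus strand at chr2:119325534-119325783, and the Notch3 sequence on the minus strand at chr17:32166891-32167140.
Dll4: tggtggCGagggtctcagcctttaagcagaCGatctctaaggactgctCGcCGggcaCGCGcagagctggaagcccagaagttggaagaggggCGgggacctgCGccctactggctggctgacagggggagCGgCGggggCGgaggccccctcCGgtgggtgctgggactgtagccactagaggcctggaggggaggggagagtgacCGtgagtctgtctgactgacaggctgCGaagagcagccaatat
Notch3: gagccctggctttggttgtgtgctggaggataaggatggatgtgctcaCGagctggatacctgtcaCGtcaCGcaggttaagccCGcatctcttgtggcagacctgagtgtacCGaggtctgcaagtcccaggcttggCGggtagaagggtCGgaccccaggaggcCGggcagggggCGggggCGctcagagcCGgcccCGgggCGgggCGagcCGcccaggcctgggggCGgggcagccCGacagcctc
The Dll4 sequence holds 14 CG dinucleotides at 65.6% G and C, and the Notch3 sequence 17 at 68.8%, so both lie above the medians of 6 CG dinucleotides and 52.4% over the 32851 promoters of the table. Among the other 4 members the promoter of Jag2 stood out with 54 CG dinucleotides and 87.2% G and C, and that of Notch4 was low in CG with 4. The core of the RBPJ motif, TGGGAA, and an E-box of the kind bound by basic helix-loop-helix repressors, CACGTG, were searched on both strands. Neither was found in the 250 bases of any of the 6 promoters, whereas 21.6% and 6.02% of all promoters held them. The absence says only that these letters are not in these windows.

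In the annotation of the same build (GENCODE vM21), Notch1 spans chr2:26457903-26516663, Dll4 spans chr2:119325784-119335962 and Jag1 spans chr2:137081456-137116644. Notch3 and Notch4 lie on chromosome 17, Jag2 on chromosome 12, Hey1 on chromosome 3, Heyl on chromosome 4 and Hes1 on chromosome 16. Notch1, Notch3 and Dll4 overlap less studied genes on the other strand. Whether the counting used strand is not given in the sources used here, so reads from the overlaps could be shared.

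Cells with more than 500 genes, 1000 to 20000 UMIs and under 10% mitochondrial UMIs were used, which were 1388 WT and 2063 KIKO cells, with medians of 7128.5 and 7234.0 UMIs per cell. A UMI (unique molecular identifier) marks a single captured RNA molecule. The study's methods join the upper limit on UMIs with one on genes, and cells over both limits alone were left out in a second count, which kept 1957 WT and 2450 KIKO cells. Neither choice gave the cell numbers or the order of the libraries that the methods state. The libraries shared 45 cell barcodes before the filter and 0 after it. Levels are given in CPM (UMIs of a gene scaled to 1000000 UMIs in all). All directions below follow the genotype labels.

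Vessel cells were classed by the number of markers detected, none of which is a Notch gene. Pericytes had at least 3 of Abcc9, Kcnj8, Atp13a5 and Vtn, and endothelial cells at least 3 of Cldn5, Flt1, Pecam1 and Cdh5. Endothelial cells with at least 3 of Gkn3, Bmx, Egfl8, Sema3g and Vegfc were called arterial, those with at least 3 of Vwf, Slc38a5, Il1r1, Vcam1 and Ndnf venous, and the rest other endothelial. The classes held 62 arterial, 588 other endothelial, 145 venous and 159 pericyte cells in the WT library, and 124, 931, 220 and 215 in the KIKO library. Their median UMIs per cell lay between 6755.5 and 12264, and arterial and venous cells were the deeper classes.

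Markers outside the rule followed the class names in part. Mgp, an arterial calcification inhibitor, had 1660 CPM in WT and 857 CPM in KIKO arterial cells against 100.3 and 62.8 CPM in venous cells, and Nr2f2, a transcription factor of veins, had 32.7 and 32.5 CPM in arterial against 192 and 176 CPM in venous cells. Pdgfrb, a receptor gene used as a pericyte marker, had 604 and 844 CPM in pericytes against 7.57 and 8.01 CPM in endothelial cells. The 5 pericyte markers outside the rule summed to 6601 and 6904 CPM in pericytes against 505.6 and 346.6 CPM in endothelial cells. The 5 arterial markers outside the rule summed to 2461 and 1361 CPM in arterial cells, 124 and 98.8 CPM in venous cells and 880.3 and 911 CPM in pericytes. The 5 venous markers outside the rule summed to 666 and 647 CPM in venous, 198 and 139 CPM in arterial cells, and 617 and 664 CPM in pericytes. Among the venous markers, Selp and Ackr1 were at or near 0 in both libraries. The other endothelial class had the capillary transporter gene Mfsd2a at 208 and 233 CPM, against 126 and 147 CPM in venous cells. The 5 capillary markers together did not set it apart from venous cells, at 2193 and 1917 CPM against 2192 and 2050 CPM, whereas arterial cells had 708 and 709.7 CPM. The class took all endothelial cells with fewer than 3 arterial and fewer than 3 venous markers.

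The pericyte class carried endothelial transcripts. In it, 94 of 159 WT and 87 of 215 KIKO cells also had at least 3 endothelial markers, and Cldn5, a tight junction gene, reached 55.6% and 37.6% of its endothelial level. Pericytes with 3 or 4 endothelial markers had medians of 13091 and 12253 UMIs, against 4386.5 and 5165 in those with 0 or 1. The source of these transcripts was not tested. Because of this overlap, pericyte levels are also given for the cells with 0 or 1 endothelial markers, of which there were 60 in the WT and 118 in the KIKO library.

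**Figure D1:**
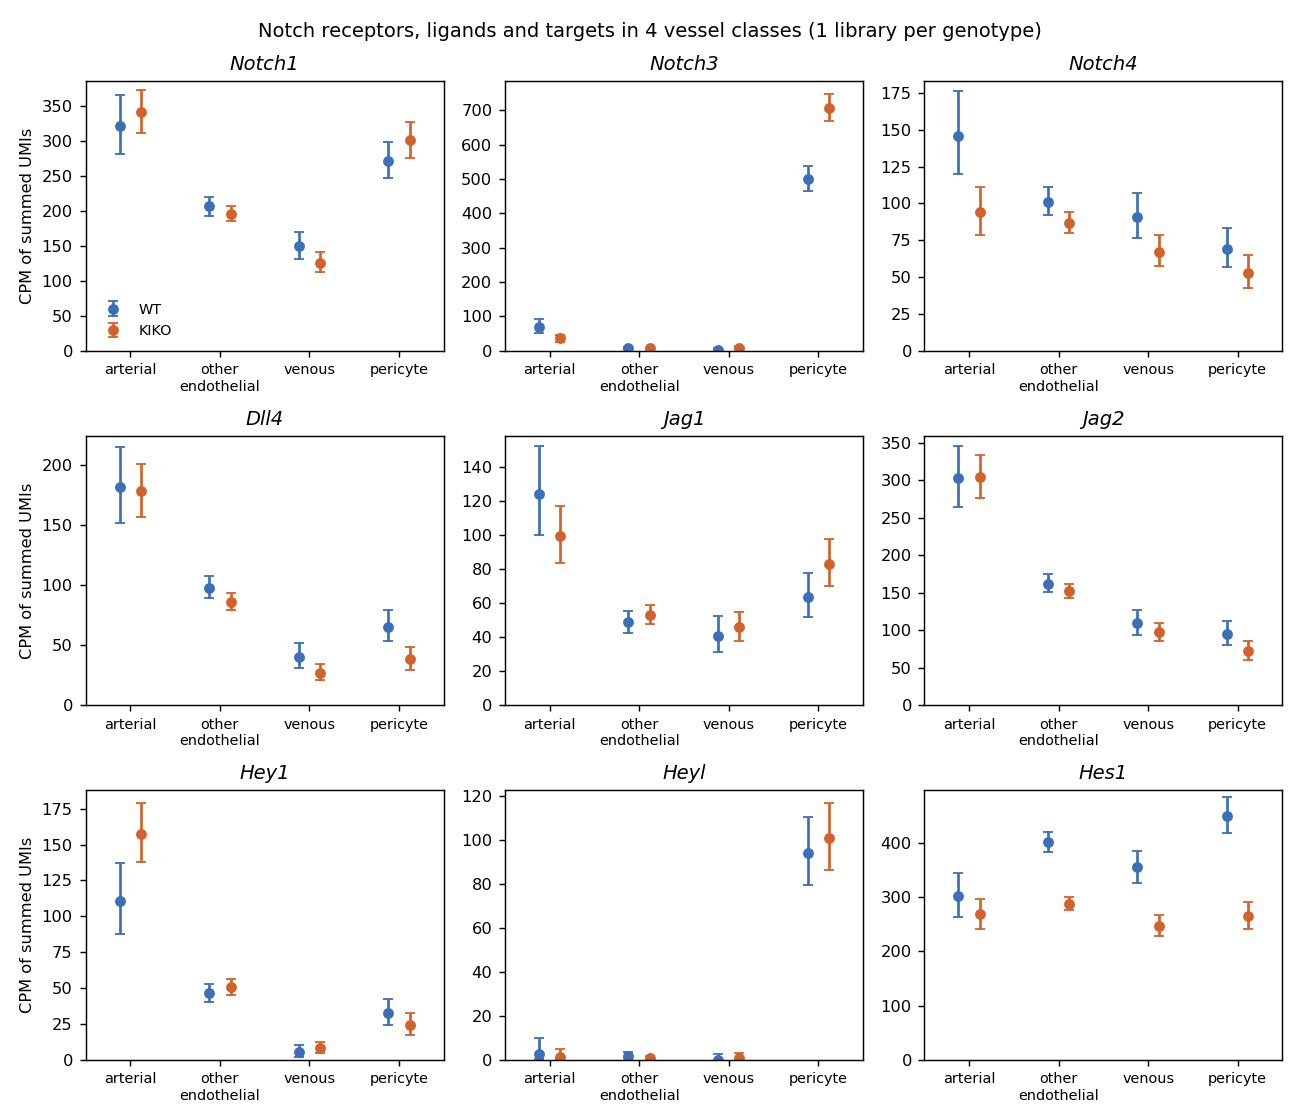
Level of each of the 9 Notch genes in CPM, scaled to the UMIs of the class, in 4 vessel classes, for the WT (blue) and KIKO (orange) library. Bars are exact 95% Poisson intervals and cover counting error only. Notch3 and Heyl peak in pericytes, whereas Dll4, Jag2 and Hey1 are highest in arterial cells and lower in venous cells.

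The receptors were laid out differently along the vessels. Notch1, the main endothelial receptor, had 322 CPM in WT and 342 CPM in KIKO arterial cells, 207 and 196 CPM in other endothelial cells, and 150.1 and 126 CPM in venous cells. In pericytes it had 272 and 301 CPM. The order was arterial, pericyte, other endothelial and venous in both libraries, and only the arterial and pericyte intervals overlapped. Pericytes with 0 or 1 endothelial markers had 350 and 364 CPM of Notch1, which was above the level over all pericytes.

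Notch3, the receptor of mural cells, had 500.3 CPM in WT and 707 CPM in KIKO pericytes. In smooth muscle cells, of which there were 8 and 18, it had 678 and 621 CPM. Endothelial cells had far less, with 69.6 and 35.9 CPM in arterial, 8.08 and 6.75 CPM in other endothelial and 3.24 and 8.91 CPM in venous cells. The intervals of other endothelial and venous cells overlapped in both libraries.

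The Notch3 signal in arterial cells sat in few cells. It came from 13 of 62 WT and 16 of 124 KIKO arterial cells, and 1 cell in each library held 15 of the 51 and 15 of the 52 UMIs. Arterial cells with at least 2 smooth muscle markers had 180 and 140 CPM of Notch3. Those with 0 such markers had 24.1 and 8.82 CPM, from 2 WT and 3 KIKO UMIs. Those with 1 had 7.60 and 5.09 CPM, from 3 WT and 4 KIKO UMIs. The smooth muscle markers summed to 828 CPM in WT and 304 CPM in KIKO arterial cells, with Acta2 at 254 and 61.4 CPM and Cnn1 at 0 in both. Endothelial cells with 0 pericyte markers had 3.22 and 2.29 CPM of Notch3, and those with 2 had 120 and 83.6 CPM. The part of smooth muscle or pericyte RNA in the arterial signal was not tested.

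Notch4, a receptor known from endothelium, had the flattest course of the receptors along the endothelium. It had 146 and 93.9 CPM in arterial, 101 and 86.5 CPM in other endothelial and 90.6 and 67.2 CPM in venous cells. In the WT library the arterial interval lay above that of other endothelial cells, and in the KIKO library these intervals overlapped. Pericytes had 68.9 and 53.0 CPM, and 13.0 and 21.7 CPM remained in pericytes with 0 or 1 endothelial markers.

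Of the 3 endothelial classes, arterial cells had the highest level of each ligand. Dll4, the ligand that defines arterial and sprouting endothelium, had 181 and 178 CPM in arterial, 97.9 and 85.8 CPM in other endothelial and 40.1 and 27.1 CPM in venous cells. Jag2 had 303 and 304 CPM in arterial, 162 and 152 CPM in other endothelial and 109 and 97.2 CPM in venous cells. The intervals of the 3 endothelial classes did not overlap for either gene in either library.

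Jag1, a ligand shared by endothelial and mural cells, had 173 and 83.3 CPM in smooth muscle cells, from 11 UMIs in each library. It had 124 and 99.4 CPM in arterial cells, 48.7 and 53.1 CPM in other endothelial cells and 40.8 and 45.8 CPM in venous cells. Here other endothelial and venous cells had overlapping intervals in both libraries. Pericytes had 63.9 and 83.3 CPM of Jag1, and 68.0 and 102 CPM when only those with 0 or 1 endothelial markers were counted. For Dll4 and Jag2 the same selection moved the pericyte level from 65.1 and 38.2 CPM to 9.72 and 3.09 CPM, and from 95.5 and 71.9 CPM to 3.24 and 3.09 CPM. These remaining levels rest on 1 to 3 UMIs each.

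The targets covered 3 patterns. Hey1, a repressor of arterial endothelium, had 110.5 and 157 CPM in arterial, 46.3 and 50.5 CPM in other endothelial and 5.18 and 8.10 CPM in venous cells, and the intervals of these classes did not overlap. Heyl, its relative in mural cells, had 94.2 and 100.9 CPM in pericytes and 47.3 and 53.0 CPM in smooth muscle cells. All endothelial cells together held 10 WT and 8 KIKO UMIs of Heyl, or 1.49 and 0.745 CPM. Hes1, a target of Notch and of other signals in many cell types, was present throughout, with 301 and 268 CPM in arterial, 401 and 288 CPM in other endothelial, 355 and 247 CPM in venous cells and 450.3 and 265 CPM in pericytes. The neighbours in the order of Hes1 levels had overlapping intervals in each library. The ratio of venous over other endothelial cells was nevertheless 0.884 (0.802 to 0.974) in WT and 0.859 (0.783 to 0.941) in KIKO. That of arterial over other endothelial cells was 0.752 (0.651 to 0.865) and 0.931 (0.833 to 1.04). Pericytes with 0 or 1 endothelial markers had 547 and 257 CPM of Hes1.

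Several members were rare in microglia and T cells. In WT microglia, 0 of 72 cells had a UMI of Dll4, Hey1, Notch3, Notch4 or Heyl, which limits the share of cells with a UMI to 4.17%, for counting error only. In KIKO microglia, 1 of 126 cells had a UMI of Dll4, of Hey1 and of Notch3, and 5 of 126 had a UMI of Notch4. No T cell of either library had a UMI of Dll4, Jag2, Hey1, Notch4 or Heyl. Notch1 was found outside the vessels as well, with 60.6 and 55.4 CPM in microglia and 21.0 and 44.7 CPM in T cells, and Hes1 had 26.5 and 18.5 CPM in microglia. Fibroblasts, 31 WT and 25 KIKO cells, had 43.6 and 71.4 CPM of Jag1 and 473 and 309 CPM of Hes1.

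The arterial and venous ends were then compared within each library. A gene was called when its level differed at least 2-fold, with at least 20 UMIs in both groups together and an interval of the ratio that left out 1. Heyl had too few UMIs, and 8 members were tested. In each library 6 of these 8 were called higher in arterial than in venous cells (Notch1, Notch3, Dll4, Jag1, Jag2 and Hey1), beside 6.11% of all genes tested in the WT and 5.63% in the KIKO library. The median log2 ratio of the members was 1.54 in both libraries, where all tested genes had a median of 0.01. Since the members were chosen with earlier results of these data known, these counts are a description.

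Hey1 had the steepest ratios of the targets. It was 21.3-fold higher in arterial cells in the WT library (interval 10.3 to 51.1) and 19.4-fold in the KIKO library (12.3 to 32.4). Among the ligands, Dll4 was 4.52-fold (3.32 to 6.21) and 6.56-fold higher (4.999 to 8.72), Jag2 was 2.77-fold and 3.13-fold higher, and Jag1 was 3.04-fold and 2.17-fold higher. Notch1 was 2.14-fold (1.78 to 2.58) and 2.71-fold higher (2.35 to 3.14), and the ratios of Notch4, 1.61 and 1.40, stayed under the limit. Hes1 did not follow the other targets, with ratios of 0.850 (0.724 to 0.995) and 1.08 (0.952 to 1.23).

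The Notch3 call at the arterial end, 21.5-fold in the WT and 4.03-fold in the KIKO library, rested on the few arterial cells described above. In the KIKO library its log2 ratio of 2.01 turned to -1.25 under a stricter cell filter and to -2.37 when classes were set on cells thinned to 2000 UMIs. The Notch3 call was lost in both libraries with classes from thinned cells and when cells with markers of 2 vessel classes were left out. It was also lost in both with only endothelial cells of no pericyte and no smooth muscle marker. The Notch1 call was lost in the WT library without cells of 2 vessel classes and when 2 markers sufficed for a class. For Jag1 in the KIKO library the log2 ratio of 1.12 went to -0.01 when only endothelial cells with no pericyte and no smooth muscle marker were used, which left 21 KIKO and 9 WT arterial cells. This last selection was chosen after seeing the data.

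Arterial cells were also compared with other endothelial cells. Against them, 3 of 8 members tested were called higher in arterial cells in each library, beside 4.73% of genes in the WT and 4.26% in the KIKO library. Hey1 was called in both, at 2.39-fold (1.82 to 3.10) and 3.12-fold (2.63 to 3.70), as was Notch3. Jag1 was called in the WT library alone, at 2.55-fold against 1.87-fold in KIKO, and Dll4 in the KIKO library alone, at 2.08-fold against 1.85-fold in WT, so these members lay close to the 2-fold limit in both libraries. The WT calls of Hey1 and Notch3 were lost in the 9 WT arterial cells with no pericyte and no smooth muscle marker. There the log2 ratio of Hey1 was 0.56, and Hes1 was called lower at -1.54. In the KIKO library the Hey1 call stayed and Hes1 had 0.64.

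Venous cells had less Dll4 and Hey1 than other endothelial cells, and 2 of 8 members tested were called lower in each library, beside 2.78% and 2.60% of all genes. Dll4 in venous cells was 0.410 (0.309 to 0.536) and 0.316 (0.242 to 0.408) times its level in other endothelial cells. For Hey1 the values were 0.112 (0.0477 to 0.225) and 0.161 (0.0969 to 0.252).

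**Figure D2:**
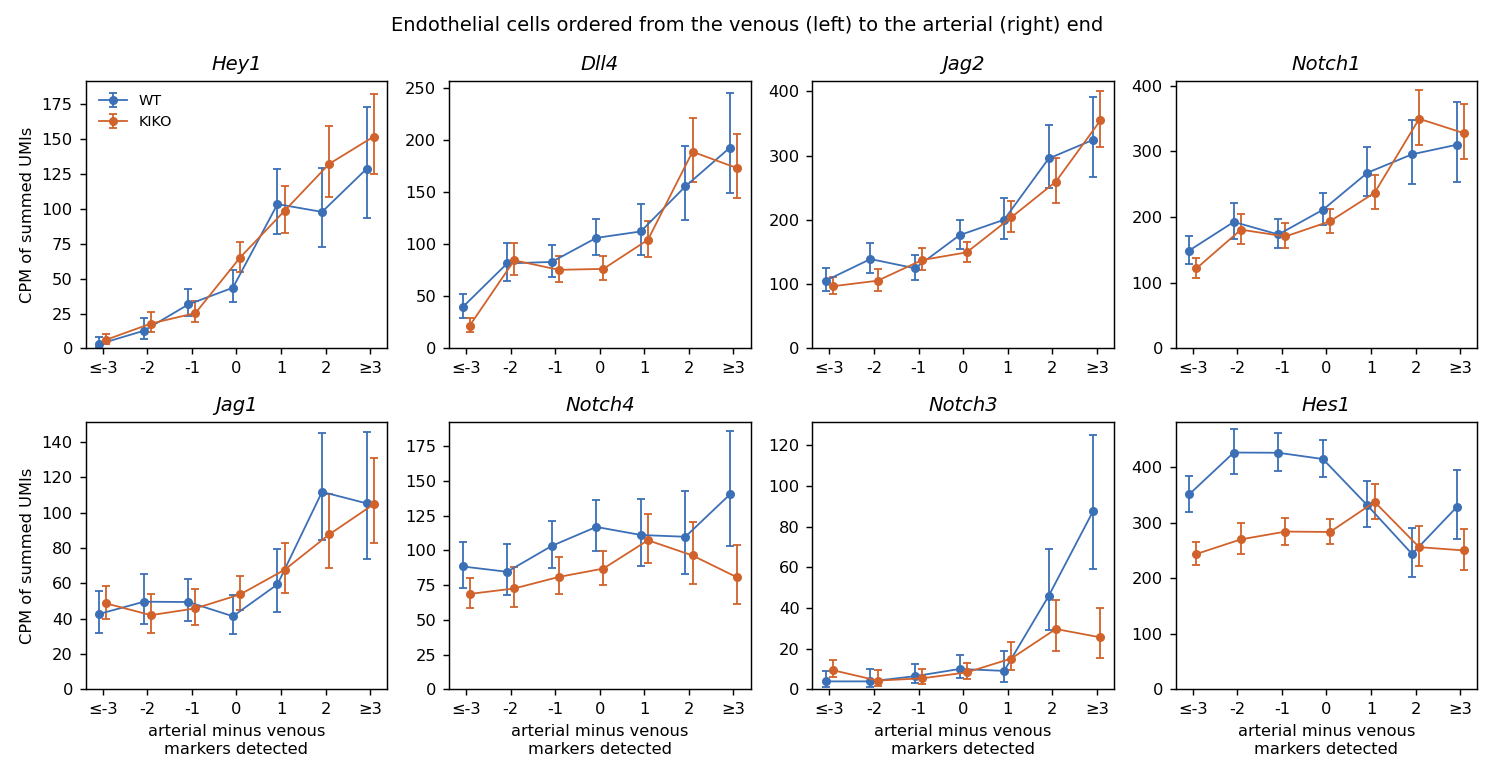
Levels of 8 Notch genes in CPM in endothelial cells ordered by the number of arterial minus venous markers detected, from -3 or less (venous end) to 3 or more (arterial end), for the WT (blue) and KIKO (orange) library. Bars are exact 95% Poisson intervals for counting error. Hey1, Dll4, Jag2 and Notch1 are higher toward the arterial end in both libraries, and Hes1 shows no such course.

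A finer order gave a graded course for part of the members. Endothelial cells were placed in 7 bins by the number of arterial minus the number of venous markers detected. From the venous to the arterial end, Hey1 went from 3.10 to 129 CPM in the WT and from 6.24 to 152 CPM in the KIKO library, with 43.5 and 65.1 CPM in the middle bin. Dll4 went from 39.6 to 193 CPM and from 21.9 to 173 CPM. Jag2 went from 106 to 325 CPM and from 96.8 to 355 CPM, and Notch1 from 149 to 310 CPM and from 122 to 328 CPM. Bins held 29 to 210 WT and 67 to 347 KIKO cells.

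Jag1 was nearly level from the venous end to the middle bin, at 42.7 and 41.4 CPM in the WT and 48.6 and 53.7 CPM in the KIKO library, and reached 105 CPM at the arterial end in both libraries. Notch4 went from 88.4 to 140 CPM in the WT library and from 68.7 to 80.6 CPM in the KIKO library. Hes1 had 351 CPM at the venous end and 328 CPM at the arterial end of the WT library, and 243 and 250 CPM in the KIKO library, with its lowest WT value of 244 CPM in the bin next to the arterial end. Median depth was lowest in the middle bins, at 6014 and 6244 UMIs per cell. When markers were counted after thinning each cell to 2000 UMIs, Hey1 still went from 3.11 to 126 CPM and from 2.96 to 210 CPM and Dll4 from 24.9 to 294 CPM and from 10.3 to 258 CPM, although the last WT bin then held 6 cells.

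Shares of cells with a UMI depend on depth and were compared after thinning to 2000 UMIs per cell. Any of the 3 ligands was detected in 72.1% of WT arterial cells (exact binomial interval 59.2 to 82.9) and in 65.3% of KIKO arterial cells (56.1 to 73.7). In venous cells the shares were 26.2% (19.3 to 34.2) and 27.9% (22.0 to 34.3), and in other endothelial cells 43.8% and 40.3%. Before thinning, 98.4% of WT arterial cells had a ligand UMI.

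More than 1 ligand was detected in 29.5% of WT and 18.2% of KIKO arterial cells and in 1.38% and 3.20% of venous cells. A receptor and a ligand together were detected in 47.5% and 36.4% of arterial cells, 21.8% and 17.7% of other endothelial cells and 8.97% and 8.22% of venous cells. None of the 9 genes was detected in 3.28% and 6.61% of arterial cells, against 25.5% and 34.7% of venous cells. Notch3 and Heyl were detected together in 14.9% of WT and 14.6% of KIKO pericytes and in 0 of 61 WT and 0 of 121 KIKO arterial cells.

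Pericytes were next set against all endothelial cells of the same library, with all 9 members tested. Notch3 was 36.6-fold (29.5 to 46.0) higher in WT and 63.3-fold (52.4 to 77.0) higher in KIKO pericytes, and Heyl 63.5-fold (33.6 to 135) and 135-fold (67.3 to 319). Called higher were these 2 of 9 members in each library, beside 10.9% of genes in the WT and 14.0% in the KIKO library. In the KIKO library 3 members were called lower, beside 8.74% of genes, namely Dll4 at 0.451 times the endothelial level, Jag2 at 0.449 and Hey1 at 0.434. In the WT library these ratios were 0.695, 0.577 and 0.736, and no member was called lower. The 3 lower calls in the KIKO library were lost without an upper limit on UMIs and with the joint limit on genes and UMIs.

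**Figure D3:**
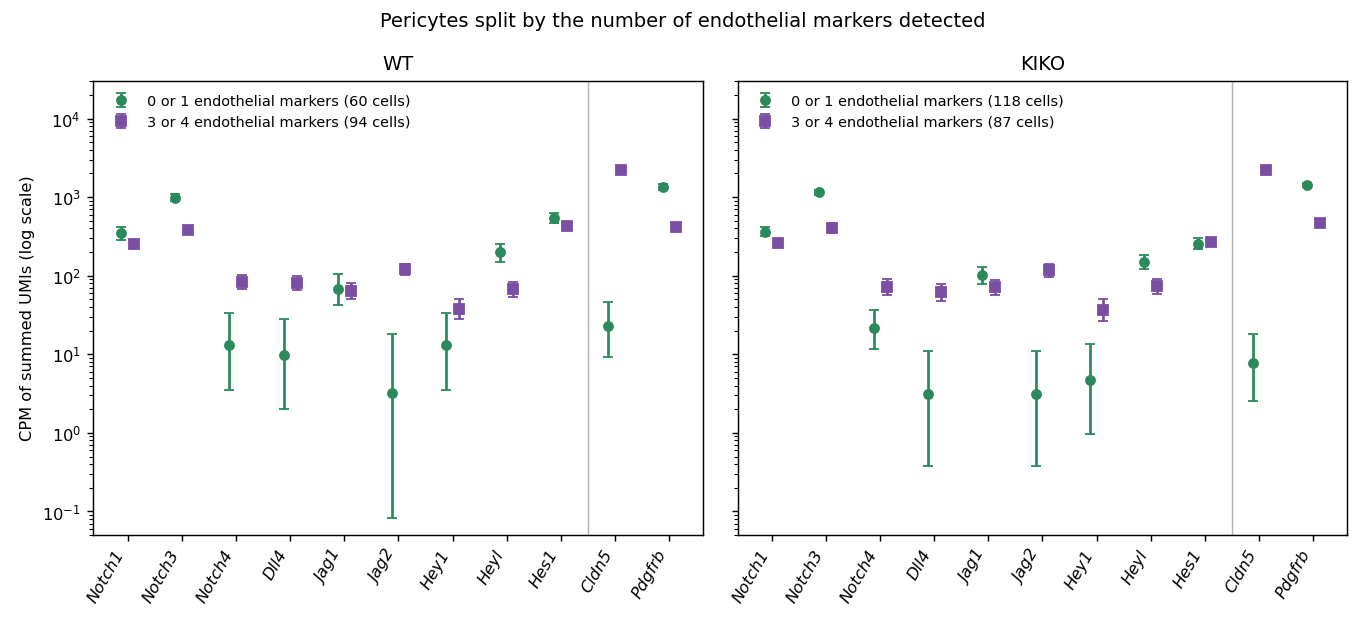
Levels of the 9 Notch genes in CPM on a log scale in pericytes with 0 or 1 (green circles) and with 3 or 4 (purple squares) endothelial markers, for the WT and the KIKO library, beside Cldn5, a marker used for the split, and the pericyte gene Pdgfrb. Bars are exact 95% Poisson intervals for counting error. Dll4, Jag2, Hey1 and Notch4 are low in pericytes with few endothelial markers, whereas Notch1, Notch3, Heyl and Jag1 are not.

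The 3 genes called lower in the KIKO library were set beside endothelial genes in the pericyte class. Dll4, Jag2 and Hey1 reached 69.5%, 57.7% and 73.6% of their endothelial level in WT pericytes, and 45.1%, 44.9% and 43.4% in KIKO pericytes. The 5 endothelial genes that the class rule did not use were also at a lower share of their endothelial level in KIKO pericytes, by unlike amounts. From WT to KIKO, Ly6c1 went from 55.1% to 38.5%, Emcn from 67.4% to 57.5% and Kdr from 48.4% to 41.4%. Esam went from 78.7% to 72.8% and Tek from 43.9% to 39.0%. Their part in the calls was not tested. In pericytes with 3 or 4 endothelial markers Jag2 had 120 and 117 CPM, Dll4 80.8 and 61.8 CPM and Hey1 38.0 and 37.1 CPM, and in those with 0 or 1 Hey1 had 13.0 and 4.64 CPM. For Hey1 in the WT library, at 4 UMIs, the intervals of these groups of pericytes overlapped.

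Notch3 and Heyl ran the other way, with 988 and 1155 CPM and 198 and 149 CPM in pericytes with 0 or 1 endothelial markers, against 383 and 409 CPM and 67.8 and 73.2 CPM in those with 3 or 4. With pericytes of at most 1 endothelial marker and endothelial cells of no mural marker, a selection chosen after seeing the data, the ratio of Notch3 in pericytes over endothelial cells was 703 in the WT (298 to 2180) and 504 in the KIKO library (293 to 951), from 5 and 13 endothelial UMIs. In that selection Dll4, Jag2 and Notch4 were called lower in both libraries. Notch1 was called higher in the KIKO library at 2.01-fold (1.73 to 2.31) with a WT ratio of 1.82 (1.48 to 2.24). The share of all genes called in that selection was not computed.

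The KIKO library was then compared with the WT library within each class. No member was called in arterial cells, other endothelial cells or pericytes, where 8, 8 and 9 members were tested and 3.26%, 2.0% and 3.59% of all genes were called. In venous cells 1 of 8 members was called, beside 2.40% of all genes. This was Notch3, with 22 KIKO and 5 WT UMIs and a ratio of 2.75 (1.02 to 9.31), and 14 of the 22 UMIs came from 1 cell. The call was lost without the cell of most UMIs, without an upper limit on UMIs and with the joint limit on genes and UMIs.

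**Figure D4:**
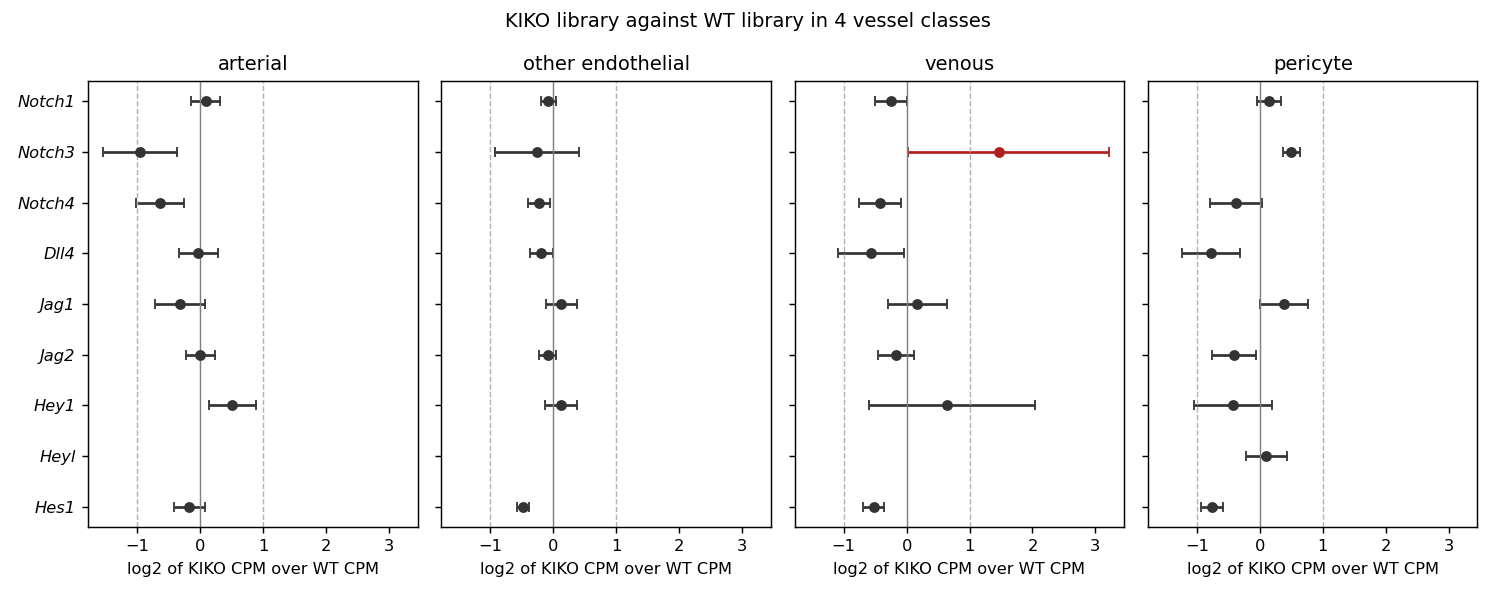
Log2 ratio of the level in the KIKO library over the WT library for each Notch gene in 4 vessel classes, with exact 95% intervals for counting error. Dashed lines mark 2-fold, the red point is the only gene called, and genes with fewer than 20 UMIs in a class are left out. Hes1 lies below 0 in other endothelial cells, venous cells and pericytes, and Notch3 lies below 0 in arterial cells and above 0 in pericytes.

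Hes1 was lower in the KIKO library in 3 of the 4 classes by less than 2-fold. The ratio was 0.718 (0.673 to 0.766) in other endothelial cells, 0.697 (0.620 to 0.783) in venous cells and 0.589 (0.523 to 0.663) in pericytes, and 0.889 (0.752 to 1.05) in arterial cells. The lower pericyte value was found in cells with 0 or 1 endothelial markers, at 0.469 (0.376 to 0.585), and in those with 3 or 4, at 0.622 (0.536 to 0.719). Hes1 is known to be induced within hours of a stimulus. The immediate early genes such as Fos, Egr1 and Junb are known to respond quickly to stimuli and also to tissue dissociation. Of 12 immediate early genes, the interval lay below 1 for 11 in arterial cells and for 12 in each other class. The share of all genes with such an interval was not computed. At 2-fold, 0 were called lower in arterial, 1 in other endothelial and 1 in venous cells and 4 in pericytes. These calls are to be read beside the shares of all genes given above. The median log2 ratios of the 12 were -0.53 in arterial, -0.55 in other endothelial and -0.52 in venous cells and -0.90 in pericytes. The summed level of the 12 was 25521 CPM in WT and 14207 CPM in KIKO pericytes, and 29656 and 20805 CPM in arterial cells. Egr1, for example, had a ratio of 0.464 in pericytes. Their part in the Hes1 values was not tested.

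Hey1 had a ratio of 1.43 (1.10 to 1.86) in arterial cells, 1.09 (0.915 to 1.30) in other endothelial cells and 0.743 (0.482 to 1.14) in pericytes. Heyl had a ratio of 1.07 (0.857 to 1.34) in pericytes. In pericytes with 0 or 1 endothelial markers the ratios were 0.358 (0.0525 to 2.12) for Hey1, from 3 KIKO and 4 WT UMIs, and 0.752 (0.540 to 1.05) for Heyl. Whether the targets differed from each other was not tested. In endothelial cells with no pericyte and no smooth muscle marker, Hes1 in arterial cells had a ratio of 2.80 (1.499 to 5.80). That ratio rested on 11 WT UMIs from 9 cells. Hey1 (3.46) was also called higher there and Jag1 (0.199) lower, and the share of all genes called there was not computed.

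Among the receptors, Notch3 was 1.41 times (1.29 to 1.55) as high in KIKO as in WT pericytes. In pericytes split by endothelial markers the ratio was 1.17 (1.02 to 1.34) with 0 or 1 and 1.07 (0.935 to 1.22) with 3 or 4, both nearer to 1 than the value over all pericytes. Cells with 0 or 1 endothelial markers were 118 of 215 KIKO and 60 of 159 WT pericytes. Of the 5 pericyte markers outside the rule, Pdgfrb had a ratio of 1.40 over all pericytes and Rgs5 had 0.974 (0.943 to 1.005). The 5 together summed to 6601 CPM in WT and 6904 CPM in KIKO pericytes, of which Rgs5 alone held 4782 and 4656 CPM. The 4 pericyte markers of the rule summed to 7517 and 9912 CPM. In arterial cells Notch3 had a ratio of 0.516 (0.344 to 0.775), where the smooth muscle genes Acta2, Tagln and Myh11 had ratios of 0.242, 0.216 and 0.310. Within arterial cells with at least 2 smooth muscle markers it was 0.776 (0.503 to 1.20).

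Notch4 had values below 1 over all cells of each class, at 0.644 (0.496 to 0.837) in arterial, 0.855 (0.755 to 0.968) in other endothelial and 0.742 (0.589 to 0.936) in venous cells and 0.769 (0.577 to 1.02) in pericytes. In pericytes with 0 or 1 endothelial markers Notch4 lay above 1, at 1.67 (0.525 to 6.97) from 14 KIKO and 4 WT UMIs, and Notch1 there was 1.04 (0.824 to 1.32). Over all cells Notch1 had ratios of 1.06 in arterial, 0.948 in other endothelial and 0.839 in venous cells and 1.11 in pericytes, and only the venous interval (0.706 to 0.999) left out 1.

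Ligand levels were near each other in the libraries in arterial cells, with ratios of 0.982 (0.794 to 1.22) for Dll4, 1.003 (0.852 to 1.18) for Jag2 and 0.801 (0.612 to 1.05) for Jag1. Dll4 had ratios of 0.877 (0.773 to 0.995) in other endothelial cells, 0.677 (0.472 to 0.971) in venous cells and 0.587 (0.425 to 0.806) in pericytes. The pericyte values of Dll4 and of Jag2, 0.752 (0.589 to 0.960), stood beside a ratio of 0.779 for Cldn5 in the same cells. In pericytes with 3 or 4 endothelial markers they were 0.765 (0.551 to 1.06) and 0.972 (0.759 to 1.24), and in those with 0 or 1 they were 0.318 (0.0266 to 2.78) and 0.955 (0.0497 to 56.3), from 1 to 3 UMIs per library. Jag1 in pericytes went the other way, at 1.30 (1.005 to 1.70).

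Other genes of the pathway were counted in lists of 51 genes, of which a list of 10 joined further targets with genes known from arteries. Between arterial and venous cells, 7 of the 35 list genes tested in the WT library were called higher and 2 lower, and 4 of 36 were called higher in the KIKO library with 0 lower. All genes tested had 6.11% and 5.63% called higher and 4.74% and 4.67% called lower. The list with arterial genes gave 4 of the 7 higher calls in the WT and 3 of the 4 in the KIKO library. It had 5 genes tested in each. Since arterial genes were put in that list, its calls say little about the pathway. Nrarp, a feedback inhibitor of Notch, was 3.46-fold and 4.15-fold higher in arterial cells, and Efnb2, the arterial ephrin, 2.76-fold and 16.6-fold. Gja4, a gap junction gene of arteries, was 46.4-fold and 22.6-fold higher, and Unc5b, a netrin receptor, 8.92-fold and 6.17-fold. Nrarp and Gja4 were also called higher in pericytes than in endothelial cells in both libraries. Smooth muscle markers summed to 828 and 304 CPM in arterial and to 49.8 and 51.0 CPM in venous cells. The part of mural RNA in the arterial values of Nrarp and Gja4 was not tested. Lower in WT arterial cells were the receptor Notch2, at 0.248, and the coactivator Maml3, at 0.376. The median log2 ratio over all list genes tested was 0.08 in the WT and 0.13 in the KIKO library.

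In pericytes against endothelial cells, 8 of 41 list genes tested were called higher in the WT library and 12 of 41 in the KIKO library, and 5 were called lower in the KIKO library. The shares of all genes were 10.9% and 14.0% higher, and 8.74% lower in the KIKO library. Hey2, a relative of Hey1 and Heyl, was 33.8-fold and 29.98-fold higher in pericytes, with 75.3 and 81.0 CPM. Of the Deltex family, Dtx3 was 11.8-fold and 11.99-fold higher, and Dtx4 was 39.2-fold and 31.2-fold higher. Gja4, an arterial gene in the endothelium, was also higher in pericytes, 16.2-fold and 19.2-fold. Nrarp was called higher in pericytes in both libraries as well. The genes called lower in the KIKO library were Dll1, Lfng, Mfng, Efnb2 and Sox17, of which Lfng and Mfng encode enzymes that add sugars to Notch receptors.

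Between the libraries few list genes were called. Efnb2 was 2.03-fold higher (1.55 to 2.68) in KIKO arterial cells, with 272 KIKO and 68 WT UMIs, and lower in KIKO venous cells, at 0.337 (0.205 to 0.544). Gja5, another gap junction gene of arteries, had a ratio of 0.380 (0.164 to 0.855) in arterial cells from 12 KIKO and 16 WT UMIs. In other endothelial cells Numbl was called lower, and in pericytes Notch2 and Pofut1 were called higher, at 2.02 and 2.09. These were 2 of 37 list genes tested in arterial cells, 1 of 39 in other endothelial cells, 1 of 35 in venous cells and 2 of 39 in pericytes, to be read beside the shares of all genes given above.

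Genes with the most similar pattern were sought among 11240 genes, by the Pearson correlation of log2(CPM + 10) over 14 profiles, namely 7 cell classes in both libraries. Libraries and depth are shared among the profiles and the values are a description. The gene nearest to Dll4 was Endou (r = 0.985), and those nearest to Jag2 and Hey1 were Depp1 (0.994) and Cdh13 (0.984). Notch4 was nearest to Sox17 (0.993), an arterial transcription factor of the pathway lists, and Hey1 had Alpl (0.974), an arterial marker outside the class rule, among its 3 nearest genes. Notch3 was nearest to Pde3a (0.995), Dgkb (0.995) and Rgs4 (0.993), and Heyl to Cacna1h (0.999), Rem1 (0.998) and Kcne4 (0.997). Among the members themselves Dll4 and Jag2 (0.982), Jag2 and Notch4 (0.974) and Jag1 and Notch4 (0.962) had the highest values, Notch3 and Heyl had 0.934, and Heyl and Jag2 had the lowest (0.237). Notch1, Jag1 and Hes1 were nearest to Arhgef7 (0.979), Arhgap23 (0.982) and Cd151 (0.984).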

How the data were processed

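Single-cell RNA was measured in 2 libraries, 1 per genotype. Cerebella had been digested with Accumax and the cells cryopreserved and thawed before capture with 10x Genomics 3′ chemistry. The authors deposited unnormalised counts of UMIs (whole numbers for each gene and cell barcode), made with Cell Ranger against mm10. The methods give version 7.1.0 and the headers of the deposited matrices 7.0.1. Whether introns were counted is not given in the sources used here.

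Cells were filtered in Python 3.11.15 (numpy 2.4.6, scipy 1.17.1, pandas 2.3.3), and no doublets were removed. The methods name as outliers cells over 10000 genes and over 20000 UMIs. The main analysis used the limit on UMIs alone, and the joint limit was an alternative chosen after seeing the data. The methods state 2854 WT and 3353 KIKO barcodes, of which 2442 and 2358 were kept. The deposited matrices hold 3237 and 3685 barcodes, of which the limit on UMIs kept 1388 and 2063 and the joint limit 1957 and 2450. The filter of the study was therefore not matched. Cells were classed in a fixed order, pericytes first, and of the endothelial cells those that met both the arterial and the venous rule (10 WT and 12 KIKO cells) were called arterial. The counts of all cells of a class in a library were added up and divided by the total UMIs of that class (CPM). Ratios carry an exact conditional 95% interval for 2 Poisson counts, levels an exact Poisson interval and shares an exact (Clopper-Pearson) binomial interval. All of them express counting error only and leave out variation among mice and preparations. A count of 0 was given the limit of 3 counts. The study's test over cells was not used, because cells of a library are not replicates. Thinning drew 2000 UMIs per cell without replacement, leaving out shallower cells.

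The 9 members, the markers and the lists were chosen with earlier results of these data known. The 9 members are named in every comparison, a list gene where it was called at least once, and the 3 nearest genes for pattern. Fos, Egr1 and Junb, and Tagln, Acta2 and Myh11, are examples from lists. Alternatives were other cell filters, marker numbers, selections of cells, scalings and limits for a call. The level of the targeted gene is not reported here.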

Additional observations from a re-analysis of the deposited data

Results flagged for a closer look

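Notch3 moved in different directions between the libraries in different vessel classes. Its log2 ratio of KIKO over WT was -0.95 in arterial cells, 1.46 in venous cells and 0.50 in pericytes, and the difference between the classes was not tested. The arterial and venous values rest on 51 and 52 UMIs and on 5 and 22 UMIs in the WT and KIKO library. Of the 22 KIKO venous UMIs, 14 came from 1 cell. The venous log2 ratio was -0.70 with 2 markers, -2.43 with 4 and -0.35 without cells of 2 vessel classes.

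Barcodes above the limit of 20000 UMIs were not used in the comparisons but held many Notch transcripts. By the same markers, 291 WT and 277 KIKO barcodes above the limit were vessel cells, and they held 11569 and 10177 UMIs of the 9 members. Pericytes made up 107 and 104 of them, with 288 and 248 UMIs of Dll4 and 906 and 1053 UMIs of Notch3.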

How the results depend on the processing

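No paired analysis was possible because a single library stands for each genotype. The share of all genes called was recomputed only for other limits of a call. Counts of members called with other cells or scalings have no such share beside them and are not read as results about the members. Of the recomputed counts of members called, 168 stayed within 1.5 times the reported count and 36 did not, and of the recomputed ratios 1041 moved by less than their counting interval, 332 moved by more and 7 changed sign after being called. Between the libraries the 1 call in venous cells became 0 without an upper UMI limit, with the joint limit on genes and UMIs, with the looser filter, with 2 or 4 markers, with classes from thinned cells, without cells of 2 vessel classes, with few markers of other classes, with the mean of single-cell CPM, with the median of all genes at 0, without the cell of most UMIs and with a minimum of 50 UMIs. There the log2 ratio of Notch3 was -0.70 with 2 markers, -2.43 with 4 and -0.35 without cells of 2 vessel classes. In arterial cells the 0 calls became 1 with the stricter filter and without cells of 2 vessel classes, 3 with few markers of other classes and 2 at 1.5-fold, where 7.50% of all genes were called. In pericytes they became 1 with few markers of other classes and with the mean of single-cell CPM, and 2 at 1.5-fold, where 11.0% of all genes were called. The selection with few markers of other classes, chosen after seeing the data, kept pericytes with at most 1 endothelial marker and endothelial cells with no pericyte and no smooth muscle marker.

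The 5 members called between KIKO pericytes and endothelial cells became 2 without an upper limit, with the joint limit, with the looser filter and with 2 markers. The 2 called in the WT library became 4 with classes from thinned cells, without smooth muscle markers in pericytes and at 1.5-fold (26.5% of all genes), 6 without cells of 2 vessel classes and 5 with few markers of other classes. Arterial against other endothelial cells gave 5 in both libraries with 4 arterial or venous markers, 5 in KIKO with classes from thinned cells and 6 in both at 1.5-fold, where 13.8% and 13.7% of all genes were called. Venous against other endothelial cells gave 1 in WT with 2 markers and with few markers of other classes, and 4 in KIKO at 1.5-fold (8.82% of all genes). Notch1 in WT arterial over venous cells was not called with 2 markers. For Notch3 in KIKO arterial cells the log2 ratio over venous cells was -1.25 with the stricter filter and -2.37 with classes from thinned cells, and over other endothelial cells -2.83 with classes from thinned cells. For Jag1 in KIKO arterial over venous cells it was -0.01 with few markers of other classes. Hey1 and Notch3 in WT arterial over other endothelial cells were not called in that setting or without cells of 2 vessel classes. Hes1 was called lower in both. With few markers of other classes its log2 ratio over venous cells was -1.24 in WT and 0.76 in KIKO arterial cells. Hey1 and Notch3 were not called over venous cells in that WT setting. Without cells of 2 vessel classes Notch3 and Notch1 were not called over venous cells in WT, nor was Notch3 in KIKO. With classes from thinned cells Notch3 was not called over venous cells in either library. These last settings hold fewer cells, and the cause was not tested. Depth limits Notch3 and Hey1 in venous cells and Heyl in endothelium, and 1 library per genotype limits every comparison of KIKO with WT.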
